A study of Saccharomyces cerevisiae with 2 samples.

Results

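The genes described here encode enzymes of glycolysis, the pathway that turns glucose into pyruvate, in a budding yeast strain that lacks Swr1. A list of 10 genes fixed the choice, TDH1, TDH2, TDH3, PGK1, ENO1, ENO2, GPM1, TPI1, FBA1 and CDC19, and those with a compaction score were kept, which was 8 of the 10 listed and 8 of 4738 genes with a score in all. PGK1 and TPI1 were not matched to a score, so the 8 genes stand for 5 of the 7 enzymes on the list. The list goes by enzyme, not by score, but it was drawn up with earlier results of these data known. For comparison, 76.1% of the 6021 protein-coding genes in the R64 gene table had a score.

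The strain was swr1Δ in the W303 background, grown to mid-log phase in YPD at 30°C, and its chromatin was crosslinked (3% formaldehyde, 15 min) and cut with micrococcal nuclease for Micro-C, a form of Hi-C that joins and sequences nucleosomes that lie close together. Swr1 is the catalytic subunit of SWR-C, the remodeler that places the histone variant H2A.Z into nucleosomes beside promoters. GEO's labels name 2 replicates of this single strain, fewer than the study's methods name, and no wild-type values were used, so nothing below is a change caused by the deletion. The compaction score is the authors' single value for each gene across the strain, it has no unit, replicate values or error, and the sources used here give neither its formula nor whether a low score stands for a less compact gene.

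Glycolysis in yeast rests on a few enzymes that are made in very large amounts in glucose, and their genes are among the most transcribed by RNA polymerase II. Several steps have a pair or trio of isozymes that are transcribed to different degrees in glucose, and some of the minor ones serve starved, stressed or respiring cells. The transcription factors Rap1 and Gcr1 drive many of these genes. All of this is textbook background, and transcription was not measured here.

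The distance table of the same libraries gives the depth behind the scores only for the genome as a whole. For the libraries, called A and B, it counts 8804603 and 7314801 read pairs, which need not be all pairs sequenced. The longest scored glycolytic gene is 1503 bp long. Pairs more than 500 bp and at most 1503 bp apart were 2.04% of the counted pairs of library A (95% Wilson interval 2.03% to 2.05%). In library B they were 2.96% of the counted pairs (2.95% to 2.97%). The intervals cover counting error only, and the number of pairs behind the score of any 1 gene is unknown. Over all genes the scores had a median of -0.0394 and quartiles of -0.342 and 0.248, an interquartile range of 0.590. SWR1 itself, the deleted gene, also carries a score, -2.13, and only 24 genes were lower.

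Scores of the glycolytic genes lay mostly on the low side of the genome, with a wide spread. The median of the 8 genes was -0.431, beside -0.0394 for all scored genes, and 6 of the 8 had a score below 0, where 53.8% of all genes did. The same 6 were below the median of all genes, under which 50.0% of genes lie by definition. Scores under the lower quartile of the genome belonged to 5 of the 8 glycolytic genes, against 25.0% of all genes. In the lowest 10% of scores were 2 of the 8 (10.0% of all genes) and in the highest 10% was 1 of the 8 (9.98% of all genes). Their range, from -1.13 to 0.579, spanned 1.71, and the SD over the 8 genes was 0.512, beside 0.555 over all genes. No test was made of these shares, since each gene has 1 value and genes are not replicates.

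**Figure D1:**
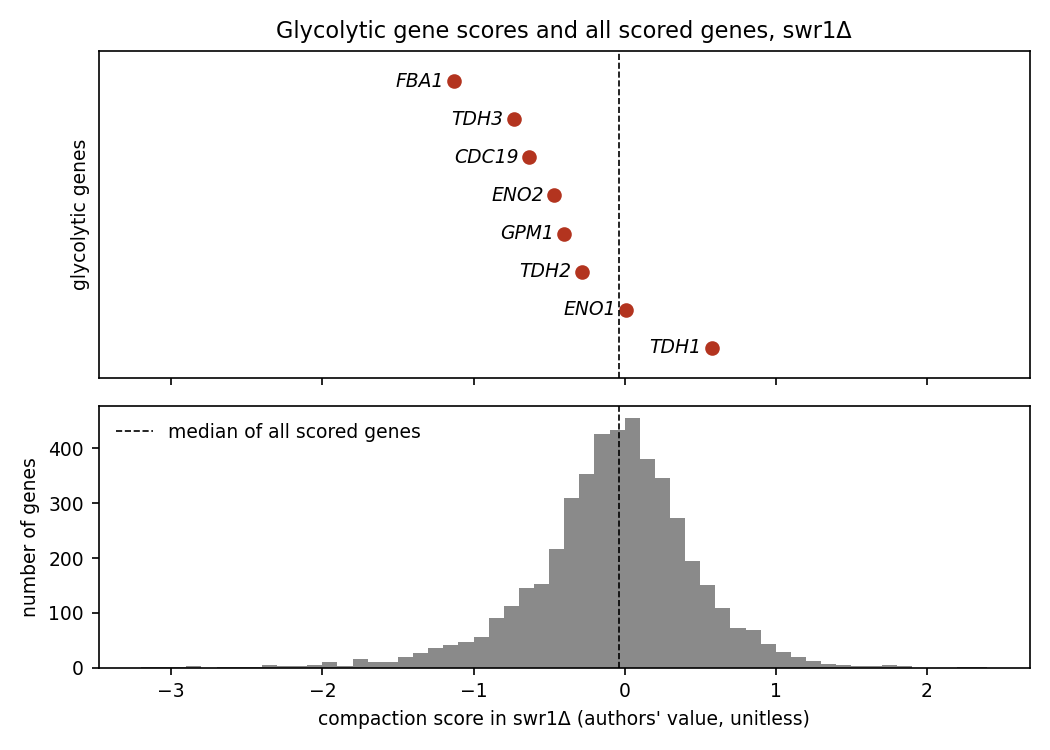
The upper panel marks the compaction score of each of the 8 scored glycolytic genes on the horizontal axis, and the lower panel counts all 4738 scored genes in bins of that score. The dashed line is the median of all scored genes at -0.0394, and 6 of the 8 genes lie to the left of it.

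FBA1 encodes the aldolase that splits the doubly phosphorylated hexose into triose phosphates, and it had the lowest score of the group. FBA1 (YKL060C, chromosome XI, 326408 to 327487 in sacCer3, the R64 assembly) was scored at -1.13, with 187 genes lower and 4550 higher. It was the only glycolytic gene below -0.951, the median of the 119 ribosomal protein genes, the other large class of strongly transcribed genes, of which 117 were below 0. The median of the 8 glycolytic genes was 0.519 higher than the ribosomal protein median.

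TDH1, TDH2 and TDH3 encode isozymes of glyceraldehyde phosphate dehydrogenase, which oxidizes triose phosphate and makes NADH. TDH3, the most transcribed of them in glucose, had the lowest of the 3 scores. TDH3 (YGR192C, chromosome VII, 882812 to 883810) was scored at -0.731, and 9.94% of scored genes were lower. TDH2 (YJR009C, chromosome X, 453683 to 454681) had a score of -0.281, with 29.4% of genes lower. TDH1 (YJL052W, chromosome X, 338271 to 339269), the isozyme of stressed and slowly growing cells, had 0.579, the highest score of the glycolytic genes, with 91.1% of genes lower. The difference was -1.31 for TDH3 minus TDH1, -0.450 for TDH3 minus TDH2 and -0.860 for TDH2 minus TDH1. All 3 genes are 999 bp long, so these differences hold at equal length.

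ENO1 and ENO2 encode enolase, which makes phosphoenolpyruvate. ENO2, the isozyme gene induced by glucose, was again below its partner. ENO2 (YHR174W, chromosome VIII, 451327 to 452640) had a score of -0.465, with 18.7% of genes lower. ENO1 (YGR254W, chromosome VII, 1000927 to 1002240), which is transcribed more evenly across carbon sources, had 0.0111, close to the middle of the genome with 54.9% of genes lower. The difference of -0.476 is between genes of the same length, 1314 bp. The enolase-related genes ERR1, ERR2 and ERR3, also 1314 bp long and lying 3, 2 and 1 protein-coding genes from a chromosome end, had scores of 0.823, 1.19 and 1.79. All members of the enolase family with a score thus ran in the order ENO2, ENO1, ERR1, ERR2, ERR3. How reads from similar copies were placed was not tested, since no genome sequence was used here.

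CDC19 encodes the pyruvate kinase of glucose-grown cells, the last step of the pathway. CDC19 (YAL038W, chromosome I, 71786 to 73288) was scored at -0.633, and 12.7% of genes were lower. PYK2, its glucose-repressed isozyme, had 0.691, with 93.8% of genes lower. The difference of -1.32 was the largest among the isozyme pairs compared, and the genes differ little in length at 1503 and 1521 bp. GPM1 (YKL152C, chromosome XI, 163642 to 164385), which encodes phosphoglycerate mutase and is the shortest scored gene of the group at 744 bp, had -0.398, with 21.7% of genes lower. Its minor homologs GPM2 and GPM3 were not matched to a score.

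The isozyme pairs can be read together. Of 11 pairs of a highly transcribed and a minor isozyme gene set out in the list, 7 had both scores, and the highly transcribed gene had the lower score in 6 of the 7. The median difference, highly transcribed minus minor, was -0.860, with a range from -1.32 to 0.268. In 4 of the 7 pairs the genes lay further apart than the interquartile range of all scores. So did 19 of 48 pairs of ribosomal protein gene copies, and the share over arbitrary pairs of genes was not computed. The TDH pairs share genes and are not independent of each other, and TDH2 counts as minor beside TDH3 and as highly transcribed beside TDH1. Within the glycolytic list all 4 pairs had the highly transcribed gene lower, with a median difference of -0.668.

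Outside the list, hexokinase ran the same way and pyruvate decarboxylase did not. HXK2, the main hexokinase in glucose, had -0.165, and HXK1, which is repressed by glucose, had 0.916, a difference of -1.08 at lengths of 1461 and 1458 bp. PDC1, the main pyruvate decarboxylase, had -0.222, and PDC5, its minor copy, had -0.490. That difference was 0.268, the only one of the 7 with the highly transcribed gene higher, and both genes are 1692 bp long. ADH1, the alcohol dehydrogenase of fermentation, had 0.0731, and its pair with ADH2 was not compared because ADH2 was not matched to a score, nor was PDC6. As a scale for these differences, 48 ribosomal protein gene pairs with A and B copies had a median absolute difference of 0.471, against 0.860 for the 7 isozyme pairs, and 19 of those 48 lay further apart than the interquartile range.

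**Figure D2:**
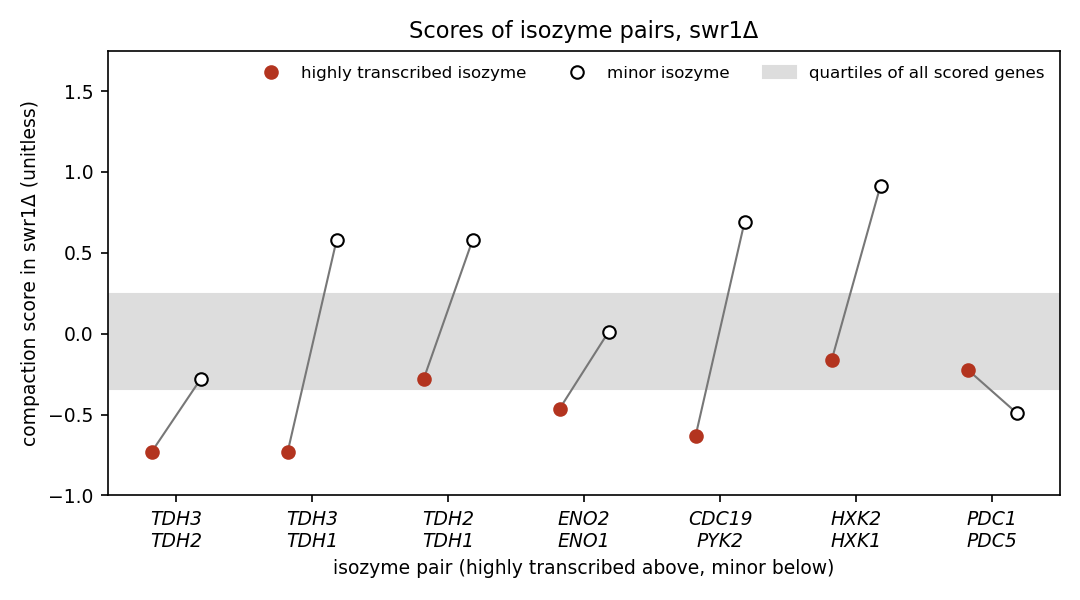
Each pair of joined points gives the compaction score, on the vertical axis, of a highly transcribed isozyme gene (filled, left) and its minor partner (open, right), and the gray band spans the quartiles of all scored genes. The filled point is the lower one in 6 of the 7 pairs, and PDC1 and PDC5 run the other way.

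Ranks among genes of their own length were close to the ranks among all genes. The 8 genes are 744 to 1503 bp long, and each was set beside the 362 to 596 scored genes whose length lies within 10% of its own. The medians of these genes of like length ran from -0.0611 to -0.0148 and their SDs from 0.435 to 0.674. Among genes of like length FBA1 ranked above 3.85%, CDC19 above 7.21%, TDH3 above 13.7%, ENO2 above 16.8%, GPM1 above 29.3% and TDH2 above 33.9%. ENO1 ranked above 56.0% and TDH1 above 87.7%. Only FBA1, TDH3 and CDC19 lay more than 1 SD from the median of their length, all on the low side, and 6 of the 8 were below it. The share of all genes beyond 1 SD of the median of their length was not computed, so the count of such genes cannot be weighed. On average 31.1% of genes of like length were lower than a glycolytic gene, beside 30.3% of all scored genes. Across all genes with a length, score and length had a Spearman's rho of 0.0831 (n = 4585 genes), which is a description across genes of the same libraries.

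**Figure D3:**
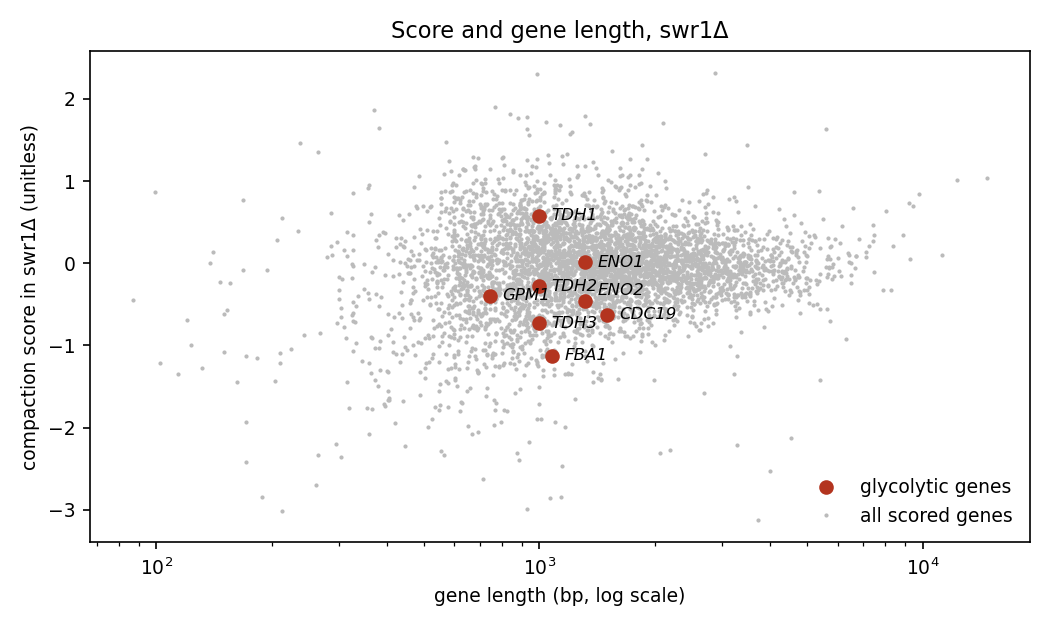
Each gray point is a scored gene found in the gene table, with its length in bp on a logarithmic horizontal axis and its compaction score on the vertical axis, and the filled circles are the 8 glycolytic genes. At 999 bp TDH3, TDH2 and TDH1 stand above each other at -0.731, -0.281 and 0.579.

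The scores were next read along the chromosome. Each gene was set beside the 2 nearest scored genes on each side, and 5 of the 8 glycolytic genes were lower than all 4 of these neighbors, where 20.0% of 4521 scored genes were lower than theirs. The score was below the mean of the neighbors in the same 5 of the 8, where 48.4% of all genes were. The median difference between gene and neighbors was -0.346 for the glycolytic genes and 0.0192 for all genes. With only scored genes directly next to the glycolytic gene, which 7 of the 8 had, it was -0.171. Over all genes a score and the mean of its neighbors had a rho of only 0.0909, a description across 4521 overlapping sets of genes. With so weak a relation, a gene with a low score tends to lie below its neighbors wherever it stands. The counts against neighbors were not separated from the low scores themselves.

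CDC19 stood furthest below its surroundings. Its neighbors CYC3, a heme lyase gene, CLN3, which encodes a G1 cyclin, RBG1 and FUN12, a translation initiation GTPase gene, had scores of 0.663, 0.702, 0.195 and -0.164. Their mean was 0.349, and the difference of CDC19 from it was -0.982.

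TDH3 and GPM1 were likewise below quite ordinary neighbors. The neighbors of TDH3, among them the histidine permease gene HIP1 at -0.341 and PDX1, a pyruvate dehydrogenase complex gene, at 0.0206, averaged -0.0760, and the difference of TDH3 from that mean was -0.655. The neighbors of GPM1 averaged 0.0624, and GPM1 differed from them by -0.460. None of them lay directly beside GPM1, since 1 unscored gene came before the nearest on the left and 4 before the nearest on the right. FBA1 differed by -0.507 from neighbors that were themselves low, at -0.914 to -0.378. ENO1, at 0.0111, was the lowest of its set by a small margin, since PUP2, a proteasome subunit gene beside it, had 0.0392.

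The remaining 3 genes were above the mean of their neighbors. The nearest scored genes to ENO2 were CTR2, a copper transporter gene directly beside it, with a score of -1.44, and on the other side SPC97, a spindle pole gene, with -0.720. The mean of its neighbors was -0.700 and ENO2 was 0.236 higher, so that 3 of its 4 neighbors were lower than it. TDH2 was 0.341 above neighbors that averaged -0.622, the lowest of them CAL4 at -1.25. TDH1 was higher than all 4 neighbors, which ran from -0.509 (PEP8, a retromer gene) to -0.0918 (CHM7), and exceeded their mean by 0.902.

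The isozyme pairs differed in how their surroundings compared. The neighbors of TDH3 averaged -0.0760 and those of TDH1 -0.323, so the difference of the neighbors, 0.247, was opposite in sign to that of the genes, -1.31. Around ENO2 and ENO1 the neighbors averaged -0.700 and 0.243, a difference of -0.943 in the same direction as that of the genes and larger than it. For CDC19 and PYK2 the neighbors differed by 0.542 and the genes by -1.32. Of the 7 pairs, 2 had neighbors that differed in the negative direction, TDH2 with TDH1 and ENO2 with ENO1. In 5 of the 7 the genes differed by a more negative value than the neighbors did. That count was not separated from the pair differences themselves, of which 6 of the 7 were negative. The TDH pairs among the 5 share genes, and the share over other pairs of genes was not computed.

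**Figure D4:**
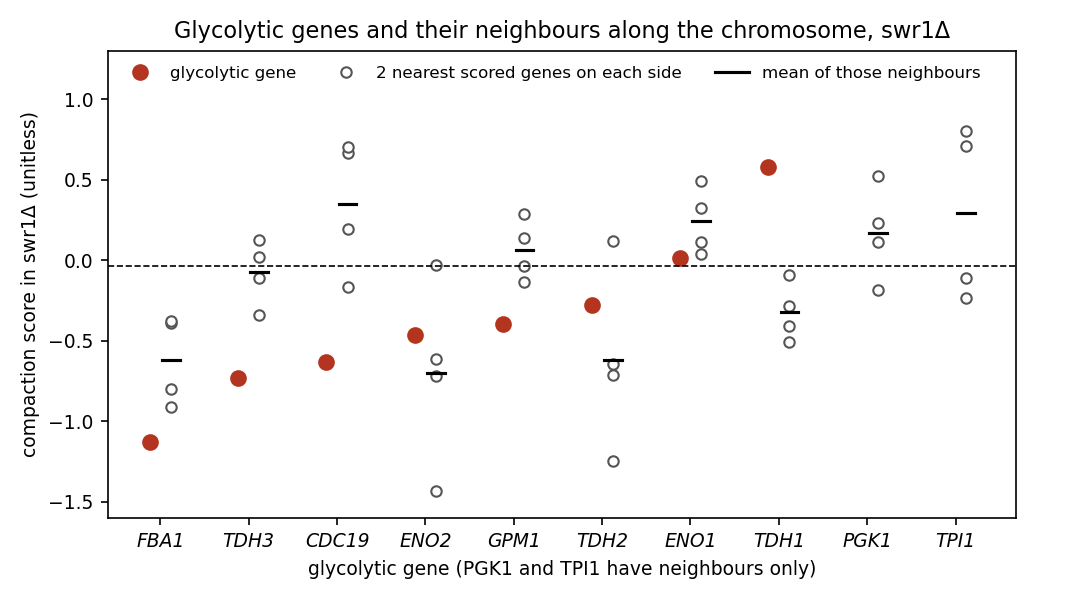
For each glycolytic gene along the horizontal axis, the filled circle is its compaction score, the open circles are the scores of the 2 nearest scored genes on each side, and the bar is their mean. FBA1, TDH3, CDC19, GPM1 and ENO1 lie below all of their open circles, TDH1 lies above all of them, and PGK1 and TPI1 have neighbors only.

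For the glycolytic genes without a score, only the surroundings can be given. PGK1 (YCR012W, chromosome III, 137746 to 138996) encodes phosphoglycerate kinase, which makes the first ATP of the pathway, and its 4 nearest scored neighbors averaged 0.171, from -0.185 to 0.523. TPI1 (YDR050C, chromosome IV, 555726 to 556472) encodes triose phosphate isomerase, and its neighbors averaged 0.292, from -0.236 (HEM12) to 0.804 (DET1).

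Space in front of the gene was the other feature of position that could be read from the gene table. The gap from the 5′ end of the coding region to the next annotated gene ran from 173 bp (ENO2) to 2260 bp (CDC19) for the 8 scored glycolytic genes, with a median of 664 bp, against a median of 425 bp for 4580 scored genes. It was longer than that median in 6 of the 8, where 49.9% of all genes were. ENO1 and TDH2 had gaps of 1786 and 1557 bp, and TDH1 had 267 bp. The rho of gap and score was 0.0505 over all genes (n = 4580 genes), and it was -0.0952 over the 8 glycolytic genes.

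Each of 9 further lists of genes around the pathway had a higher median than the glycolytic genes. Of their 66 genes, 53 had a score, with a median of -0.0501, and 27 of the 53 (50.9%) were below 0, close to the 53.8% of all genes. The first steps, from hexokinase to phosphofructokinase, had a median of -0.154 over 6 genes, from PGI1, the phosphoglucose isomerase gene, at -0.606 to HXK1 at 0.916. PFK1 and PFK2, which encode the subunits of phosphofructokinase, had -0.142 and -0.173. Of these 6 genes, 0 were in the lowest 10% of all scores, where 10.0% of all genes were, so the count sets them apart little. PGI1 lay not far outside that limit, with 13.6% of genes lower.

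A separate list of minor glycolytic isozyme genes formed the opposite end. All 4 of its genes with a score, PYK2 and the ERR genes, were in the highest 10% of scores (9.98% of all genes). Their median was 1.01, and 0 of the 4 were below 0, where 53.8% of all genes were. Apart from PYK2, these are the enolase-related ERR genes, which lie 1 to 3 protein-coding genes from a chromosome end. How reads from such similar copies were placed was not tested, so the 4 scores do not describe minor isozymes in general. This list leaves out other genes counted as minor in the isozyme pairs. Of those, HXK1 at 0.916 and TDH1 at 0.579 were also in the highest 10%. ENO1 at 0.0111, TDH2 at -0.281 and PDC5 at -0.490 were not. Within the glycolytic list only TDH1 was in the highest 10%.

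Branches off glycolysis were mixed. Pentose phosphate genes, which make NADPH and ribose, had the highest median of the branches, 0.516 over 8 genes. Of them, 4 were in the highest 10% (9.98% of all genes). The pentose phosphate genes ran from TAL1, the main transaldolase gene, at -0.800 to its paralog NQM1 at 0.899. Trehalose and glycogen genes had a median of 0.0852 over 12, with GLG1, which primes glycogen, lowest at -0.864 and GPH1, glycogen phosphorylase, highest at 1.33. Fermentation genes had a median of -0.178 over 6, from ADH5 at -0.870 to the mitochondrial alcohol dehydrogenase gene ADH3 at 0.164.

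Smaller branches stayed near the genome median or somewhat below it. Glycerol synthesis had a median of -0.0326 over 4 genes, from GPP1 at -1.11 to GPD1 at 0.640. Gluconeogenesis had 0.0926 over 3 genes, from PCK1 at -0.0937 to PYC1 at 0.482. The acetate genes had the next lowest median after the glycolytic genes, -0.334 over 6, from ALD5 at -0.646 to ALD2 at 0.401, and 5 of the 6 were below 0, where 53.8% of all genes were.

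Genes for the regulators of glycolysis lay mostly in the middle of the genome. RAP1, GCR1 and GCR2, which encode activators of glycolytic genes, had -0.0529, -0.0898 and -0.0984, with 48.8%, 45.7% and 44.8% of scored genes lower. TYE7, another activator gene, had -0.646, with 12.2% of genes lower.

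**Figure D5:**
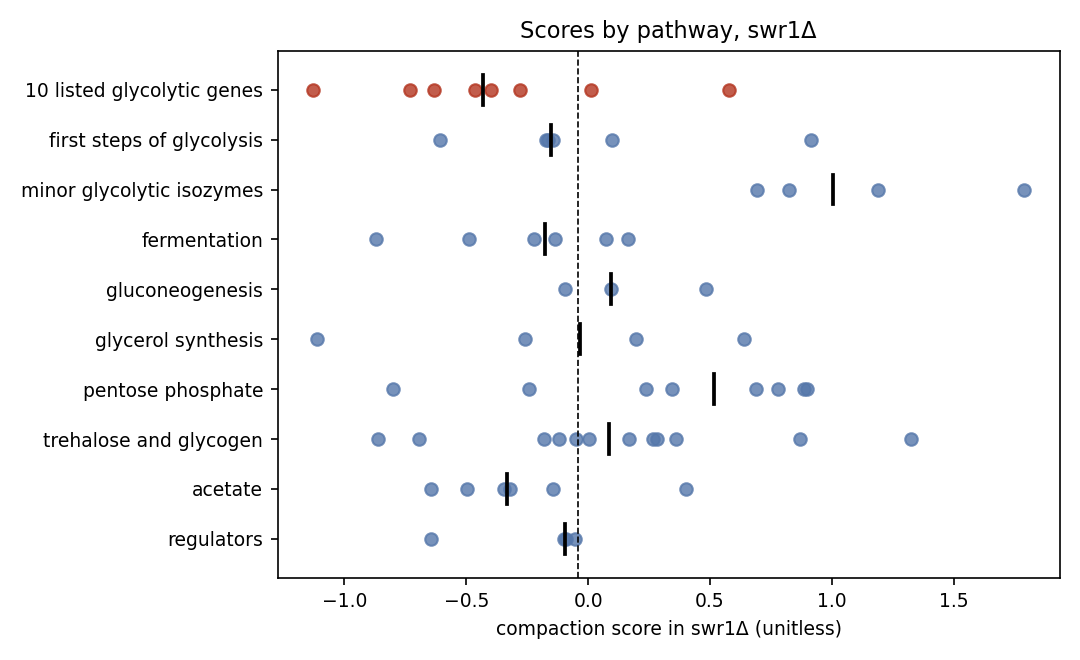
Each point is a gene with its compaction score on the horizontal axis, each row is a list, the short vertical bar is the median of the list, and the dashed line is the median of all scored genes. The glycolytic genes in the top row have a median of -0.431, and all 4 points in the row of minor isozymes lie at 0.691 or above. Other minor isozymes, such as ENO1 and PDC5, are in other rows.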

How the data were processed

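Micro-C libraries of swr1Δ were used. The authors deposited a compaction score for each of 4738 genes, without replicate values, and its formula, log base, length correction and the way libraries were combined are not given in the sources used here. The deposited counts of read pairs by distance are raw, in 4 orientations that were summed for each of 2 libraries, and their columns name no replicate. The submitters' processing notes name CASAVA 1.8.2, Bowtie2 and sacCer3. The number of per-sample columns left unused was 0.

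Scores were used as deposited, with no filter. Lengths, order and coordinates came from the R64 gene table, which held 96.8% of the scored identifiers. Ranks are percent of scored genes strictly lower. Members and lists were chosen with earlier results of these data known, and which isozyme is highly transcribed was taken from general knowledge. The text names the members, their isozymes and neighbors, the lowest and highest gene of each list, and SWR1. Further genes named from the lists (PFK1, PFK2, GCR1, GCR2 and the ERR genes) and the comparison with ribosomal protein genes were chosen after their values were seen. No test over samples was possible with 1 score per gene. Functions were tested on simulated data. Values were computed with pandas 2.3.3, scipy 1.17.1 and numpy 2.4.6 and drawn with matplotlib 3.10.9, in Python 3.11.15.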

Additional observations from a re-analysis of the deposited data

How the results depend on the processing

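The median score of the 8 glycolytic genes, -0.431, was -0.549 without TDH1 and ENO1, -0.633 without the TDH and ENO genes and -0.392 when centered on the median of all genes, and leaving out each gene in turn gave -0.465 to -0.398. The share below 0, 75%, was also 75% for scores under the median of all genes and 25% for the lowest 10%, a stricter limit by construction. The mean percent of genes lower than a glycolytic gene, 30.3%, ran from 26.8% (genes of at least 1000 bp) to 31.1% (genes of like length), and from 21.6% to 34.1% with each gene left out in turn. The median isozyme difference, -0.860, was -0.668 within the list, -1.08 with 1 pair for each enzyme and -58.7 percentage points as a difference of ranks. The value of -1.08 takes TDH3 with TDH1, the widest TDH pair at -1.31. With TDH3 and TDH2 (-0.450) in its place, the middle value would be that of ENO2 and ENO1, -0.476. The result with 1 pair for each enzyme thus depends on which TDH pair is taken. The median difference from neighbors, -0.346, was -0.241 with 1 gene on each side, -0.240 with 3 and -0.171 for the 7 genes with a scored gene directly beside them. The mean of 8059702 counted read pairs per library became 7314801 to 8804603 with 1 library left out. Of 25 alternatives, 0 turned a direction, and 2 moved away from the main value, the lowest 10% limit and the difference of ranks. Shares, mean percents and read-pair totals have no sign to turn. Leaving out 1 gene could not bring the median above 0 with these scores. The count of 0 is therefore no measure of robustness. The alternatives without the TDH and ENO genes, with single genes left out, with 1 pair for each enzyme and with direct neighbors were chosen after seeing the data. Shared sequence windows, codon adaptation and promoter motifs were planned and not run, since no genome sequence was used here. No paired analysis was possible because there is only 1 group. The depth behind each score is unknown.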

Other observations

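Other duplicated genes on these pathways, chosen after their values were seen, differed by very different amounts. The transaldolase genes TAL1 and NQM1 had scores of -0.800 and 0.899, a difference of -1.70, and the glycerol phosphatase genes GPP1 and GPP2 had -1.11 and 0.195, a difference of -1.30. GPD1 and GPD2, the glycerol phosphate dehydrogenase genes, had 0.640 and -0.260, and the aldehyde dehydrogenase genes ALD2 and ALD3 had 0.401 and -0.495. The other pairs differed less. The pyruvate carboxylase genes PYC1 and PYC2 differed by 0.389 and the glycogenin genes GLG1 and GLG2 by -0.169. The phosphofructokinase genes PFK1 and PFK2 differed by 0.0313, the neutral trehalase genes NTH1 and NTH2 by 0.0635, the glycogen synthase genes GSY1 and GSY2 by 0.0937 and the phosphogluconolactonase genes SOL3 and SOL4 by 0.107. Over all 10 such pairs the median absolute difference was 0.279, and 4 of the 10 lay further apart than the interquartile range of all scores. Beside that, 19 of 48 pairs of ribosomal protein gene copies did, and the share over arbitrary pairs was not computed.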
